A study of Homo sapiens with 6 samples.

Results

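The nuclear genes of the respiratory chain and the ATP synthase were followed in the Huh7 line of human hepatocellular carcinoma cells, with and without a short hairpin RNA directed at ITGB5, the integrin beta 5 subunit. Members were all protein-coding genes outside the mitochondrial chromosome whose symbol begins with NDUF, SDH, UQCR, COX or ATP5, leaving out SDHAP pseudogenes. That rule took 112 of the 58735 genes in the table: 46 of complex I, 8 of complex II, 9 of complex III, 28 of complex IV and 21 of complex V. It includes assembly factors that carry these prefixes, and it includes NDUFA4 and NDUFA4L2, which were counted with complex IV because NDUFA4 is known as a subunit of that complex. It leaves out chain genes with other names, such as CYC1.

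The respiratory chain sits in the inner mitochondrial membrane. Complexes I and II pass electrons from NADH and succinate to ubiquinone, complex III hands them to cytochrome c, and complex IV (cytochrome c oxidase) reduces oxygen with them. Complexes I, III and IV pump protons, and complex V, the ATP synthase, uses the returning protons to make ATP. Most subunits are made from nuclear genes and imported, while a few core subunits are encoded in mitochondrial DNA, so each of these complexes other than complex II is built from 2 genomes.

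The labels give 2 groups of Huh7 cells, grown in RPMI-1640 medium with serum: shITGB5, the knockdown, and shcontrol, a control hairpin, with 3 libraries each. All libraries come from 1 cell line, and the labels state neither the hairpin sequences, nor whether 1 or more hairpins were used, nor whether replicates are separate cultures. P-values therefore cover only the variation among these 6 libraries, part or all of which may be technical. RNA sequencing gave 15777922 to 18011313 counts in genes per library. Levels below are CPM (counts scaled to a common library total, with TMM factors), and a change is the log2 ratio of shITGB5 to shcontrol from edgeR's quasi-likelihood test, called at a Benjamini-Hochberg adjusted p under 0.05 over 16577 genes. ITGB5 itself lay at 172.7, 180.7 and 174.0 CPM in the shITGB5 libraries and at 204.3, 213.3 and 216.4 CPM in the controls. It was lower in every knockdown library, by 16.8% on average (log2 change -0.27, SE 0.032, edgeR adjusted p = 2.13e-09; exact permutation p = 0.1, two-sided, the smallest that 3 libraries against 3 allow).

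The upstream regions of 4 members that rose are printed here because members are known to share binding sites for NRF1, the ETS factor GABPA and YY1, and these 4 show windows with and without such words. Of the 112 members, 92 had an entry in the RefSeq promoter table (GRCh38.p14), which spans 250 bases before to 50 after the start of each gene. Capitals mark matches, on either strand, to the NRF1 core GCATGCGC (and the bases that extend it to the full palindrome), the ETS words ACCGGAAG and CCGGAAGT, or the YY1 word AAGATGGC. The COX17 window (chr3:119677357-119677656, minus strand) holds an NRF1 and an ETS word. The ATP5PF window (chr21:25735005-25735304, minus strand) holds an NRF1 core and a YY1 word, and that of ATP5MD (named ATP5MK by RefSeq, chr10:103396426-103396725, minus strand) holds an ETS word. None of these words is in the COX7C window (chr5:86617691-86617990, plus strand).
COX17: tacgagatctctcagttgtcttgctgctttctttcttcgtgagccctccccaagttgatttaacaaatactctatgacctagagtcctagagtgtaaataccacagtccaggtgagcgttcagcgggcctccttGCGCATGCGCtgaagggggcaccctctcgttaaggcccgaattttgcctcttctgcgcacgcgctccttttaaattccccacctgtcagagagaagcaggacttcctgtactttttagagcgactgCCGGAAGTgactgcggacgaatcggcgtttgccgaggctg
ATP5PF: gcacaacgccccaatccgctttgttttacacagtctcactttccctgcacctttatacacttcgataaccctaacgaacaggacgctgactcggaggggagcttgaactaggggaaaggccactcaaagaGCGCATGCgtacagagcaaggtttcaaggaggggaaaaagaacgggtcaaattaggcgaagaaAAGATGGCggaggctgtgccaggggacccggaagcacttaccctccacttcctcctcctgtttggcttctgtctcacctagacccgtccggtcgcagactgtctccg
ATP5MD: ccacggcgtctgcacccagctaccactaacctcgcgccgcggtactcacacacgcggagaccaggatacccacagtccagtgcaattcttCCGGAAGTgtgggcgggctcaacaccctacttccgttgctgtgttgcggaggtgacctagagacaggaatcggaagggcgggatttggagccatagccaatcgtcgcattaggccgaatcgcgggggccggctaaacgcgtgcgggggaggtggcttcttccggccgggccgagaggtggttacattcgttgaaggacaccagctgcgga
COX7C: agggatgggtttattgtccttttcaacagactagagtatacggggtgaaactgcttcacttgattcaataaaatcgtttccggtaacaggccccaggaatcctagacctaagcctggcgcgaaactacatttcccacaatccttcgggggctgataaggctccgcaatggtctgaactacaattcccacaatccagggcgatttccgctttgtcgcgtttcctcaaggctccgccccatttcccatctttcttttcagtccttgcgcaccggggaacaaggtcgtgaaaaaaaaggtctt

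Over all 92 member windows, the NRF1 core was found in 18 (19.6%), against 5.33% of 10946 windows of tested nuclear protein-coding genes and 3.05% of all 35116 windows. An ETS word was found in 18 member windows (19.6%), against 10.2% of the tested coding genes. AAGATGGC was found in 12 (13.0%, against 5.13%), and the SP1 word GGGGCGGGG in 13 (14.1%, against 27.6%). The windows of members were lower in GC than those of the tested coding genes (medians 61.2% and 65.3%). Among members that rose, 5 of 20 windows held the NRF1 core and 6 of 20 an ETS word; among members that did not pass the test these were 13 of 64 and 12 of 64. A match describes letters in a window and is no evidence of binding. The RNA of the factors was also measured: from control to hairpin libraries, NRF1 went from 23.8 CPM ± 0.444 to 23.0 CPM ± 0.464 (SD, n = 3 for each value), GABPA from 35.5 CPM ± 3.03 to 35.0 CPM ± 2.48 and YY1 from 105.1 CPM ± 7.07 to 107.6 CPM ± 3.77, and none of these passed the test.

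Levels of different genes were compared per kilobase of gene (FPKM, from the counts and the lengths that the table lists). The most abundant member was ATP5F1B, the catalytic beta subunit of the ATP synthase, with a mean of 349.3 FPKM over the 6 libraries. In complex V it was followed by ATP5MD at 101.1 FPKM and ATP5F1C, the gamma subunit of the rotating shaft, at 70.6 FPKM. In complex I the most abundant were 3 accessory subunits, NDUFS5 at 283.6 FPKM, NDUFB7 at 139.8 FPKM and NDUFB11 at 100.3 FPKM. In complex IV they were COX6B1 at 196.9 FPKM, COX8A at 171.4 FPKM and COX7C at 119.4 FPKM, and in complex III UQCRH at 108.8 FPKM, UQCRQ at 76.1 FPKM and UQCRC1 at 70.2 FPKM. Complex II was lower, led by SDHB at 33.9 FPKM, SDHD at 18.5 FPKM and SDHA at 17.5 FPKM. Assembly factors, which help to build a complex without staying in it, spanned 0.393 FPKM (COX20) to 34.2 FPKM (NDUFAF2). The length used matters for some of these: on the length of its principal transcript COX4I1 was at 489.2 FPKM, against 89.1 FPKM on the table's length.

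**Figure D1:**
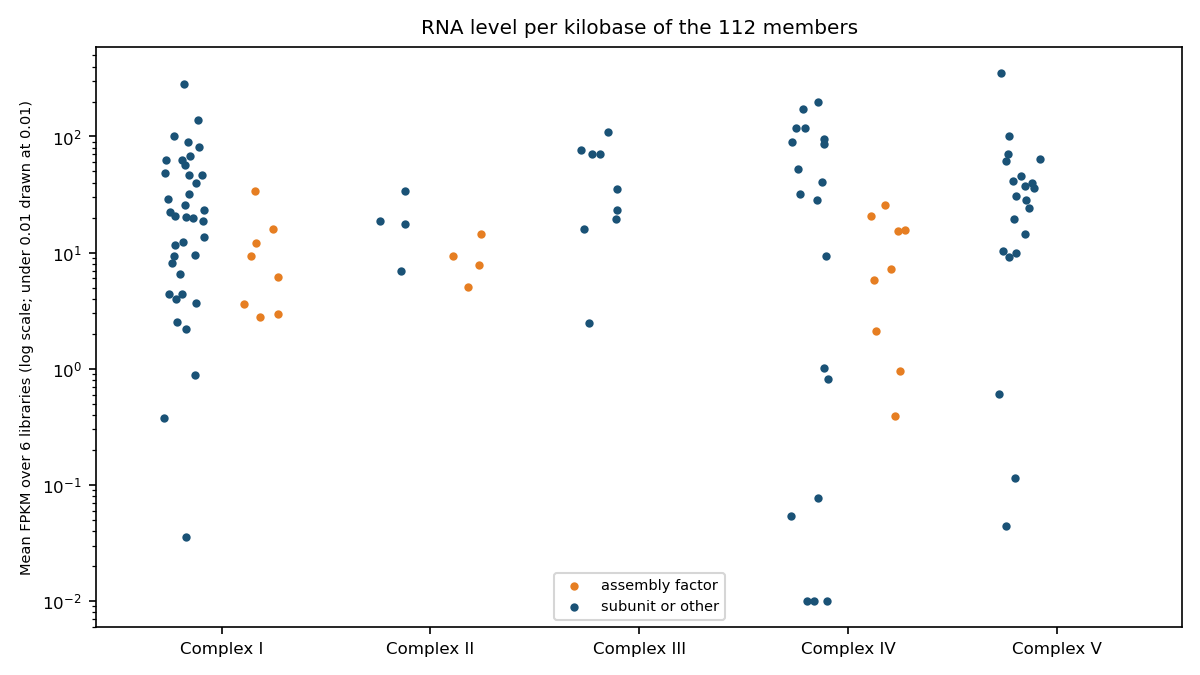
Mean FPKM over 6 libraries (log scale) of each of the 112 members by complex, with assembly factors in orange and subunits and other members in blue. ATP5F1B stands highest at 349.3 FPKM, and the 3 members at 0 in every library are drawn at the bottom of complex IV.

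Of the 112 members, 103 passed the filter on low counts, and the other 9 were not tested. COX4I2, COX6A2 and COX7B2, which are forms known from other tissues, were at 0 in every library, a count that still allows up to 0.167 to 0.190 CPM for counting error. Counts ranged from 0 to 3 for COX8C, 0 to 4 for ATP5MGL, 0 to 5 for the readthrough ATP5MF-PTCD1, 0 to 2 for the readthrough NDUFC2-KCTD14, 1 to 6 for COX6B2 and 5 to 15 for NDUFA7. The NDUFA7 count is low for a subunit of complex I, and 78.7% of the bases of its principal transcript lie in exons of another gene; how the counting treated such bases is not given in the sources used here.

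With the hairpin, 25 of the 103 tested members rose and 3 fell. Over all 16577 genes tested, 8.31% rose and 6.74% fell; among members these shares were 24.3% and 2.91%. Among nuclear protein-coding genes alone, 9.98% rose and 7.77% fell. The changes were small: the called members ranged from -0.69 for NDUFV2 to 0.37 for ATP5MD, with a median absolute log2 change of 0.18. The median signed log2 change, in which rises and falls offset, was 0.045 over tested members and -3.64e-05 over all genes. In bulk RNA, a change in which cells are present and a change in RNA per cell cannot be told apart. A log2 change above 0 was found for 72 of 103 members (69.9%), against 50% of all genes. In 30 members every shITGB5 library was higher than every control (29.1%, against 14.7% of all genes), and in 9 every one was lower (13.8% of all genes). The counts depended on which libraries were used: 16 members rose without shITGB5 replicate 3, 16 without shcontrol replicate 3 and 17 without shcontrol replicate 2, and the number that fell was 1 without shITGB5 replicate 3 or without shcontrol replicate 1. Calls over all genes dropped as well, from 2495 to 1969 without shITGB5 replicate 3, 2033 without shcontrol replicate 3 and 1939 without shcontrol replicate 2. Of the 28 called members, 11 were called in all 6 fits that leave out a library, among them NDUFA1, UQCRB, COX17, COX7A2, COX7C, NDUFA4, ATP5MD, ATP5F1E, ATP5PF and ATP5F1B. With limma on log2(FPKM + 1), 9 rose and 2 fell, while that test called 1284 genes in all. It ended the calls of NDUFA1, UQCRB and ATP5F1E among those 11, at each of the 3 pseudocounts tried.

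**Figure D2:**
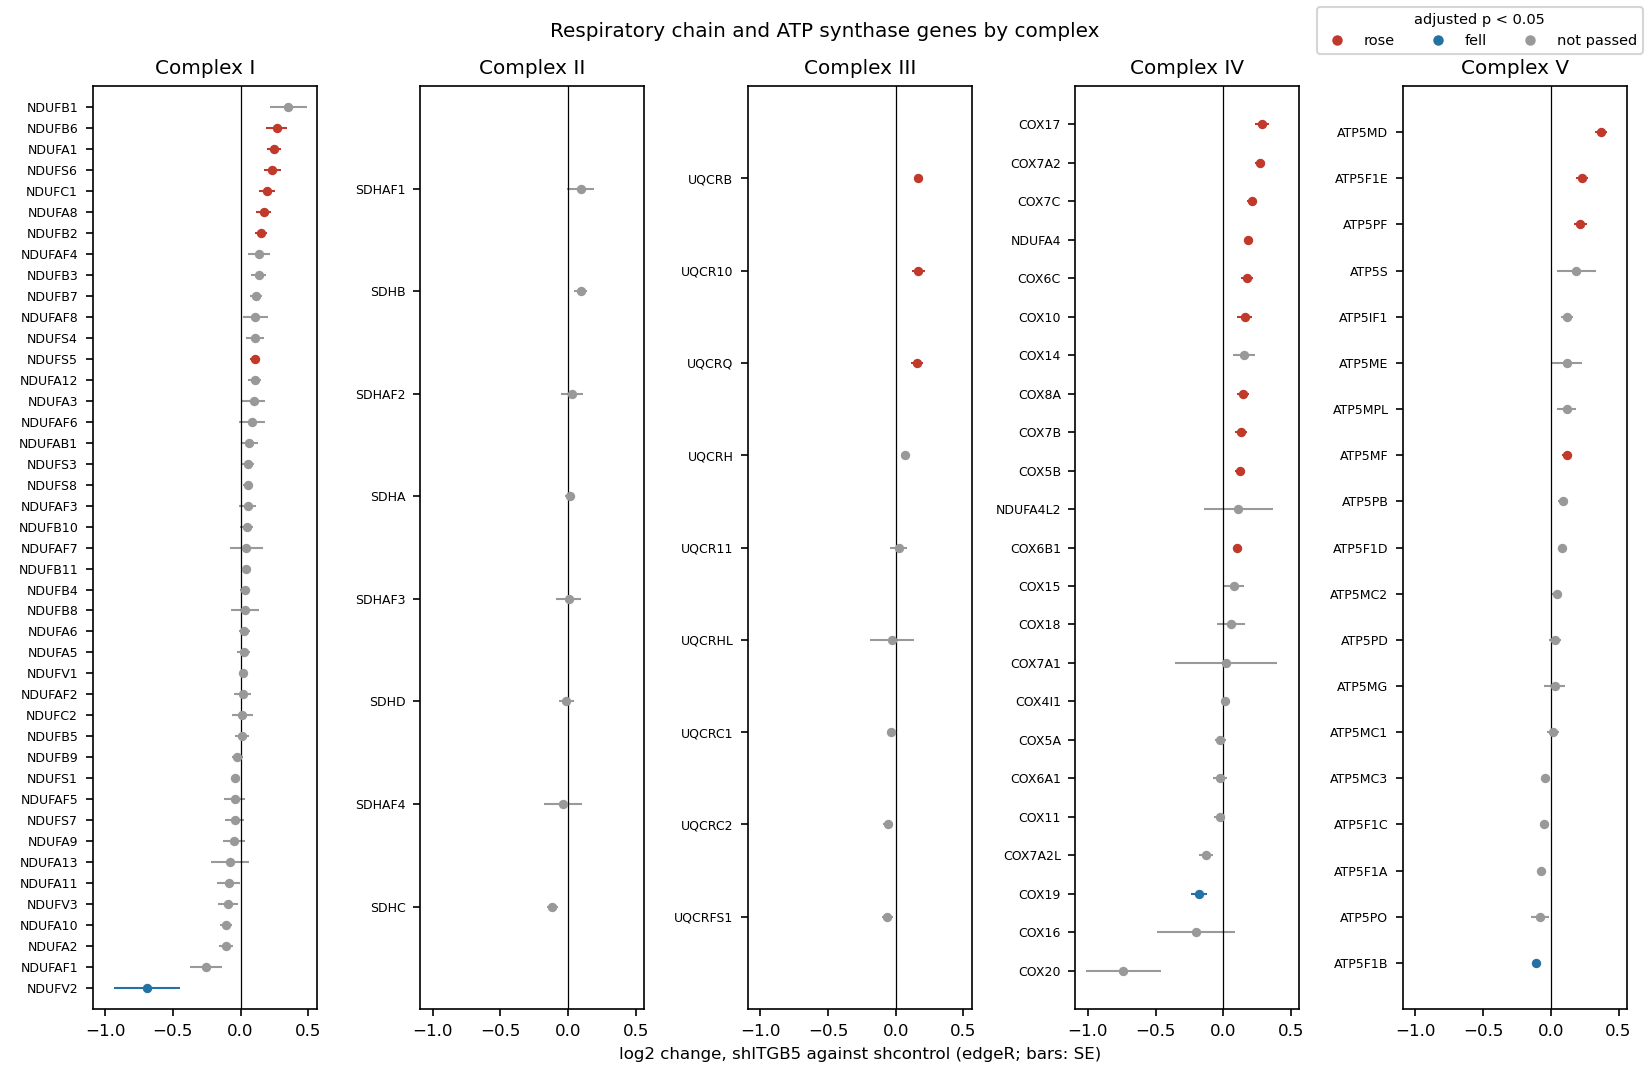
Log2 change of the tested members (1 is left out) with its SE, by complex, sorted within each panel; red rose, blue fell, grey did not pass. The red points lie between 0.10 and 0.37, complex II has none, and the wide bars of NDUFV2 and COX20 belong to genes under 4 CPM.

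Of the 23 tested members of complex IV, 10 rose, 1 fell and 12 did not pass, and the median log2 change was 0.10. The shares that rose and fell were 43.5% and 4.35%, against 8.31% and 6.74% of all genes tested. The rises were mostly among the accessory subunits, which surround the mitochondrially encoded catalytic core: 8 of 11 rose (median 0.13), and the other 3 were COX4I1, COX5A and COX6A1. Summed over its 28 members, complex IV RNA stood at 2253, 2275 and 2320 CPM with the hairpin and at 2168, 2126 and 2081 CPM in the controls, 7.42% higher on average with no overlap between the groups. Without 1 library the number of called complex IV members fell from 11 to 7 (without shITGB5 replicate 1), 6 (without shITGB5 replicate 3) or 5 (without shcontrol replicate 3), and it was 8 in the other 3 such fits.

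COX7A2, the form of subunit VIIa that is not confined to heart and muscle, was at 190.8, 204.6 and 206.5 CPM with the hairpin and at 174.8, 161.5 and 162.0 CPM in the controls. All 3 knockdown libraries were above all 3 controls, a rise of 20.6% (95% interval 15.1% to 26.4%, log2 change 0.27, SE 0.034, edgeR adjusted p = 8.69e-09). COX7C, a small membrane-spanning subunit, was at 253.6, 243.5 and 269.4 CPM against 229.5, 219.7 and 212.7 CPM. Its groups did not overlap either, and it rose by 15.7% (10.8% to 20.9%, log2 change 0.21, SE 0.032, edgeR adjusted p = 8.37e-07). NDUFA4 was at 193.3, 195.0 and 208.4 CPM against 173.8, 181.8 and 169.6 CPM. It was higher in every knockdown library and rose by 13.6% (8.51% to 18.9%, log2 change 0.18, SE 0.034, edgeR adjusted p = 3e-05). The paralogue NDUFA4L2, known for its induction by low oxygen, was far rarer, at 2.21 CPM ± 0.547 without and 2.38 CPM ± 0.561 with the ITGB5 hairpin (SD, n = 3), with overlapping groups (edgeR adjusted p = 0.85).

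The other 5 accessory subunits of complex IV that rose had smaller changes. COX6C rose by 12.7% (log2 change 0.17, edgeR adjusted p = 0.00314), COX8A by 10.4% (0.14, 0.020), COX7B by 9.49% (0.13, 0.0275), COX5B by 8.71% (0.12, 0.00749) and COX6B1 by 7.42% (0.10, 0.0247). Groups did not overlap in 4 of them; for COX7B the lowest knockdown library, at 98.7 CPM, was below the highest control, at 98.98 CPM. Each of these 5 calls was lost when some libraries were left out. For COX6C the adjusted p was 0.0758 without shITGB5 replicate 3. For COX5B it was 0.101 without shITGB5 replicate 3 and 0.0741 without shcontrol replicate 3. For COX6B1 it was 0.197 without shITGB5 replicate 3, 0.0723 without shcontrol replicate 2 and 0.204 without shcontrol replicate 3. COX8A had 0.0505 and 0.0697 without shITGB5 replicates 1 and 2, and 0.277 and 0.0503 without shcontrol replicates 2 and 3. COX7B had 0.0807 and 0.116 without shITGB5 replicates 1 and 3, and 0.102 and 0.258 without shcontrol replicates 1 and 3.

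Of the accessory subunits that did not pass, COX4I1, the widely expressed form of subunit IV, was the most abundant by CPM, at 426.5, 438.5 and 420.6 CPM with the hairpin and 423.9, 428.4 and 424.5 CPM in the controls. The groups overlapped, and the 95% interval of the difference ran from 2.77% lower to 4.19% higher (log2 change 0.01, edgeR adjusted p = 0.876). COX5A had a mean of 121.4 CPM ± 1.13 with the hairpin and 123.0 CPM ± 5.91 in shcontrol (SD, n = 3), and COX6A1 had 54.2 CPM ± 3.11 and 55.0 CPM ± 0.612. The intervals of these differences ran from -6.36% to 3.80% and from -8.56% to 5.77%. The intervals of COX7A2 and COX4I1 do not meet: the lower bound for COX7A2, 15.1%, lies above the upper bound for COX4I1, 4.19%. This pair was taken after the values were seen, and COX7A2 had the largest rise of the 11 accessory subunits. The difference between the 2 genes was not tested. COX7A1, the muscle form of subunit VIIa, averaged 1.04 CPM with the hairpin and 1.02 CPM in shcontrol, and COX7A2L, a relative that joins complexes III and IV into supercomplexes, 50.2 CPM ± 1.82 and 54.8 CPM ± 1.69. COX7A2L was lower in all 3 knockdown libraries but did not pass (log2 change -0.13, edgeR adjusted p = 0.112).

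Among the 9 complex IV assembly factors, 2 rose and 1 fell (22.2% and 11.1%, against 8.31% and 6.74% of all genes tested). COX17, a copper chaperone that supplies the metal for the catalytic core, was at 61.3, 61.6 and 60.2 CPM with the hairpin and at 51.6, 49.8 and 48.5 CPM in the controls. The groups were well apart, and the rise was 22.1% (13.8% to 31.1%, log2 change 0.29, SE 0.052, edgeR adjusted p = 2.53e-05). COX19, another factor that handles copper for the complex, moved the other way: 37.8, 38.0 and 37.3 CPM against 43.9, 41.5 and 42.5 CPM, again with no overlap. It fell by 11.6% (log2 change -0.18, SE 0.061, edgeR adjusted p = 0.0367), a call that was lost without any 1 library other than shcontrol replicate 2 (adjusted p 0.0633 to 0.148) or with no low-count filter. Reads of COX19 may include those of ADAP1, which shares 21.4% of its exon bases on the same strand and had 18.8% of its count. COX10, which makes a heme precursor for the complex, rose by 11.6% (log2 change 0.16, edgeR adjusted p = 0.0436), and lost its call without any 1 library other than shITGB5 replicate 3 (adjusted p 0.0501 to 0.211), and also with DESeq2, limma, the replicate block or no low-count filter. COX20 had the lowest estimate of any member, at 1.43 CPM ± 0.246 (SD, n = 3) against 2.40 CPM ± 0.200, but did not pass (log2 change -0.74, edgeR adjusted p = 0.0652). Of its principal transcript 83.5% overlaps exons of HNRNPU on the opposite strand, which had 103904 counts against 195 for COX20; the part of this overlap in the COX20 level was not tested.

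**Figure D3:**
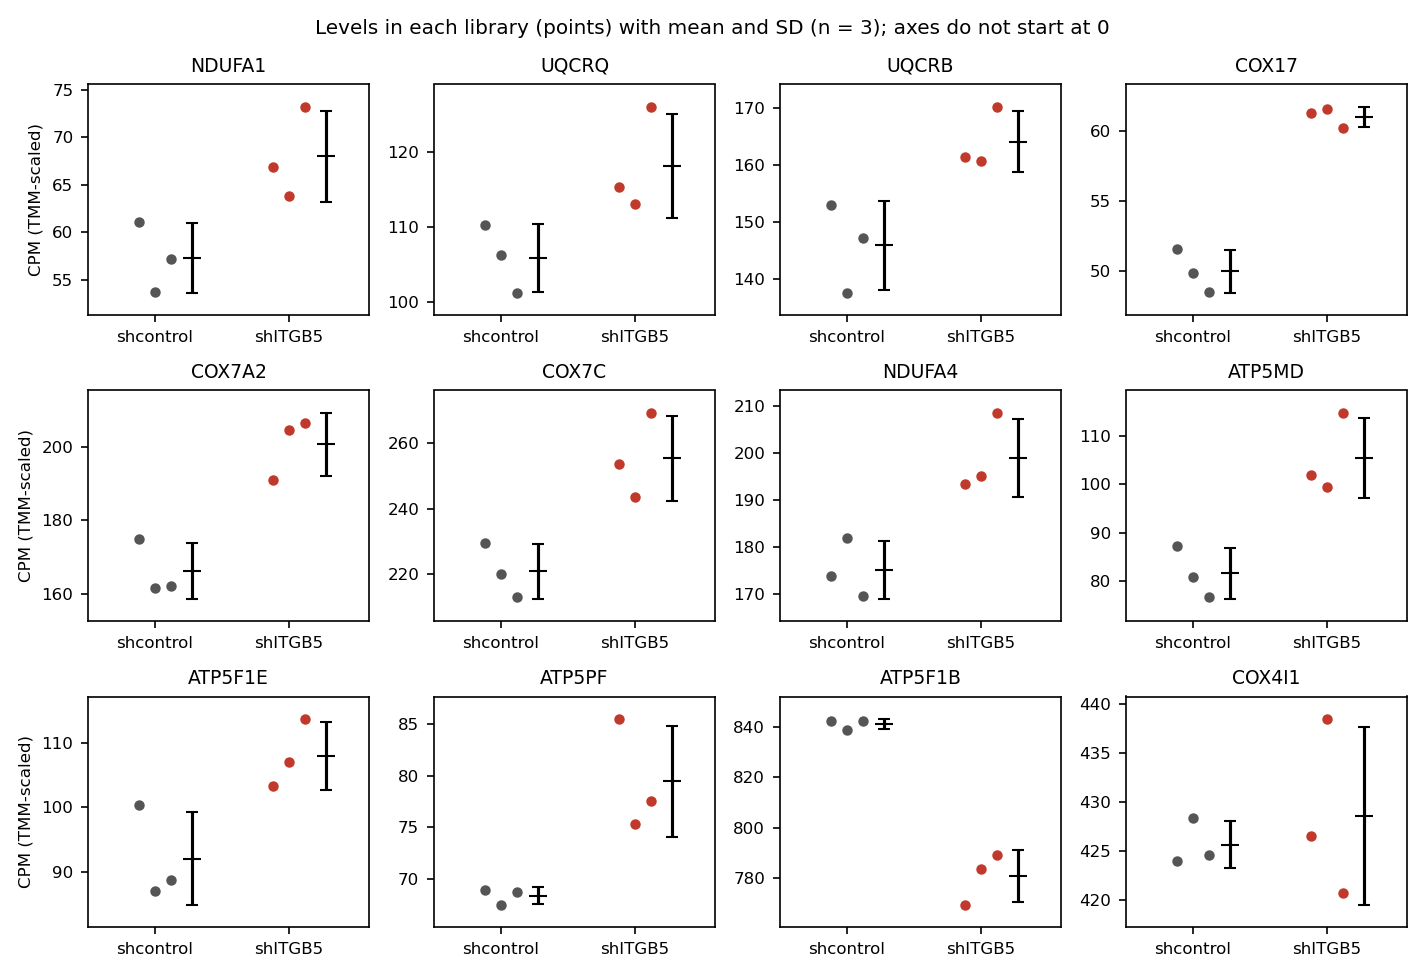
CPM of 12 members in each library, with the mean and SD of each group (n = 3) beside the points; the vertical axes do not start at 0. In 10 panels all shITGB5 points lie above the controls, ATP5F1B shows the opposite, and COX4I1 overlaps.

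In complex V, 4 of 19 tested members rose (21.1%), 1 fell (5.26%) and 14 did not pass. The shares of all genes tested were 8.31% and 6.74%. The summed level of complex V was nearly the same in both groups. The sum stood at 2822, 2853 and 2907 CPM with the hairpin and 2898, 2837 and 2838 CPM in the controls, 0.122% higher on average with overlapping groups. The risen genes included 1 of 5 F1 subunits, 1 of 4 peripheral stalk subunits and 2 of 5 membrane subunits, and 0 of 3 c-ring genes. Each of these roles holds 3 to 5 genes, too few to set such counts against the 8.31% of all genes. ATP5MD, a small subunit of the membrane part, had the highest estimate of all members: 101.9, 99.4 and 114.9 CPM against 87.2, 80.8 and 76.6 CPM. All knockdown libraries were higher, and the rise was 29.2% (21.2% to 37.6%, log2 change 0.37, SE 0.047, edgeR adjusted p = 7.05e-09). ATP5F1B was at 769.0, 783.4 and 789.2 CPM with the hairpin and at 842.5, 839.1 and 842.7 CPM in the controls. It was lower in every knockdown library and fell by 7.26% (interval -9.98% to -4.46%, log2 change -0.11, SE 0.022, edgeR adjusted p = 0.000156). In CPM this drop was larger than the gain of any other complex V member. Without shITGB5 replicate 2, 8 complex V members passed in place of 5.

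ATP5F1E, the small epsilon subunit of the central stalk, was at 103.4, 107.0 and 113.8 CPM with the hairpin and 100.4, 87.0 and 88.8 CPM in the controls. The lowest knockdown library was just above the highest control, and the rise was 17.3% (10.4% to 24.6%, log2 change 0.23, SE 0.044, edgeR adjusted p = 7.84e-05). ATP5PF, a part of the peripheral stalk that holds the catalytic head still, was at 85.5, 75.3 and 77.5 CPM against 68.9, 67.4 and 68.7 CPM. It was higher in each knockdown library, by 16.3% (8.99% to 24.1%, log2 change 0.22, SE 0.048, edgeR adjusted p = 0.000521). ATP5PF shares 23.1% of its exon bases with GABPA on the opposite strand, and GABPA, with 47.5% of its count, did not pass. ATP5MF, another membrane subunit, rose by 8.35% (log2 change 0.12, edgeR adjusted p = 0.0214), a call lost without shITGB5 replicate 3 (0.123), shcontrol replicate 2 (0.074) or shcontrol replicate 3 (0.253).

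The remaining F1 subunits did not pass. ATP5F1A, the alpha subunit, was at 396.6, 410.0 and 394.1 CPM against 417.7, 426.4 and 415.2 CPM: lower in every knockdown library, with a log2 change of -0.07 (edgeR adjusted p = 0.0594; 0.0390 with DESeq2, 0.0458 with library totals in place of TMM, 0.0489 with a minimum mean of 1 CPM and 0.0162 without shITGB5 replicate 2). ATP5F1C averaged 161.5 CPM ± 3.48 with the hairpin against 167.0 CPM ± 4.21 (SD, n = 3), and ATP5F1D, the delta subunit, 142.8 CPM ± 5.50 against 134.4 CPM ± 1.40. The 3 genes for the c-ring, ATP5MC1, ATP5MC2 and ATP5MC3, encode the same mature protein behind different import sequences. Their log2 changes were 0.02, 0.04 and -0.04, with adjusted p from 0.381 to 0.889, and their intervals were -4.99% to 7.48%, -2.25% to 8.82% and -6.81% to 0.979%. ATP5IF1, the inhibitor that blocks ATP hydrolysis by the enzyme, averaged 91.7 CPM ± 6.76 with the hairpin against 84.5 CPM ± 5.37 (log2 change 0.12, edgeR adjusted p = 0.0808). It passed without shITGB5 replicate 2 (adjusted p = 0.0240) and without shcontrol replicate 1 (0.0347).

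Complex I, the largest of the complexes, had 8 members that rose, 1 that fell and 35 that did not pass. Of its tested members 18.2% rose and 2.27% fell, against 8.31% and 6.74% of all genes tested. The median log2 change of complex I was 0.04. Its summed level was 2827, 2867 and 2915 CPM with the hairpin against 2794, 2750 and 2741 CPM, 3.91% higher with no overlap. By role, 7 of 29 accessory subunits (24.1%) and 0 of 8 assembly factors rose, against 8.31% of all genes tested. With only 8 assembly factors, 0 is near that share, and the difference between the roles was not tested. Of the assembly factors, 1 had an unadjusted p under 0.05 in edgeR and 0 in DESeq2, which also called 0. Without shITGB5 replicate 3 the number of called complex I members was 5, and without shcontrol replicate 2 it was 4, against 9 with all libraries.

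NDUFV1, the core subunit that carries the NADH site, was at 285.7, 292.9 and 289.9 CPM with the hairpin and 294.4, 282.1 and 281.1 CPM in the controls, with overlapping groups and an interval of -2.59% to 5.19%. NDUFA1, an accessory subunit of the membrane arm encoded on the X chromosome, was at 66.9, 63.8 and 73.2 CPM against 61.1, 53.7 and 57.2 CPM. All its knockdown libraries were higher, by 18.6% (10.3% to 27.5%, log2 change 0.25, SE 0.053, edgeR adjusted p = 0.000428); 44.5% of its exon bases overlap RNF113A, which had 30.3% of its count. NDUFV2, the partner of NDUFV1 in the NADH-oxidising module, was far lower than it, at 2.22, 1.75 and 1.53 CPM against 3.15, 2.74 and 3.03 CPM. It was called as fallen (log2 change -0.69, SE 0.246, edgeR adjusted p = 0.0453), but the call was lost without any 1 library other than shITGB5 replicate 1 (adjusted p 0.0647 to 0.191), with DESeq2, with limma and with no low-count filter. The 245 counts of NDUFV2 are few for a core subunit: 82.9% of its principal transcript lies in exons of another gene model on the same strand, its pseudogenes held a count equal to 83.7% of its own, and with those counts added the call was lost.

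Further accessory subunits of complex I rose. NDUFB6, of the distal membrane arm, was at 30.4, 30.5 and 31.2 CPM against 25.6, 23.2 and 27.8 CPM, with no overlap (log2 change 0.27, SE 0.075, edgeR adjusted p = 0.00848, but 0.104 without shcontrol replicate 2). NDUFS6, a zinc-binding subunit near the NADH module, was at 50.3, 48.0 and 53.8 CPM against 47.1, 44.0 and 37.9 CPM, the groups just apart (log2 change 0.23, SE 0.062, edgeR adjusted p = 0.00507). That p was 0.0708 without shITGB5 replicate 3 and 0.14 without shcontrol replicate 3. NDUFC1 rose by 14.6% (log2 change 0.20, edgeR adjusted p = 0.0139; 0.0911 without shcontrol replicate 2). NDUFA8, on the intermembrane-space side, rose by 12.5% (0.17, adjusted p = 0.0243), a call lost without shITGB5 replicate 2 (0.0912), shITGB5 replicate 3 (0.0791) or shcontrol replicate 3 (0.203). NDUFB2 rose by 11% (0.15, adjusted p = 0.00867; 0.112 without shcontrol replicate 2). Its exons overlap those of BRAF on the opposite strand over 35.9% of their bases, and BRAF, with 82.0% of its count, fell (log2 change -0.31, edgeR adjusted p = 2.67e-07). NDUFS5, the most abundant complex I member per kilobase, was at 158.5, 156.8 and 167.7 CPM against 144.6, 149.0 and 156.0 CPM, barely apart (log2 change 0.10, adjusted p = 0.0349). Its call was lost without shITGB5 replicate 3 (0.271), shcontrol replicate 1 (0.249) or shcontrol replicate 2 (0.108). NDUFB7 and NDUFB11, the next in abundance, were at 77.2 CPM ± 3.71 (SD, n = 3) and 144.2 CPM ± 5.86 with the hairpin, against 71.3 CPM ± 2.92 and 140.1 CPM ± 4.49, and did not pass with all libraries.

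In complex III, 3 of 9 members rose (33.3%) and none fell, against 8.31% and 6.74% of all genes tested. All 3 are small accessory subunits. UQCRB, which lies close to the ubiquinone site, was at 161.4, 160.6 and 170.2 CPM with the hairpin and 153.0, 137.6 and 147.3 CPM in the controls. Every knockdown library was higher, by 12.4% (6.99% to 18%, log2 change 0.17, SE 0.036, edgeR adjusted p = 0.000387). UQCRQ rose by 11.5% (log2 change 0.16, SE 0.041, adjusted p = 0.00401), from 105.9 CPM ± 4.56 (SD, n = 3) to 118.2 CPM ± 6.93, and lost its call without shITGB5 replicate 3 (0.116) or shcontrol replicate 3 (0.069). UQCR10 rose by 12.2% (log2 change 0.17, SE 0.048, adjusted p = 0.0113), from 64.4 CPM ± 2.37 to 72.2 CPM ± 2.39, and lost its call without shITGB5 replicate 1 (0.0849) or shcontrol replicate 1 (0.1). UQCRH, the hinge protein at the cytochrome c docking site, was at 149.4 CPM ± 3.92 and 157.1 CPM ± 3.48 with overlapping groups (log2 change 0.07, adjusted p = 0.173). UQCRC1, a large subunit on the matrix side, was at 229.9 CPM ± 6.90 and 224.6 CPM ± 5.64, and UQCRFS1, the Rieske iron-sulfur protein, had a log2 change of -0.06 (adjusted p = 0.321). The summed level, 1021, 1006 and 1043 CPM against 1022, 974.0 and 981.6 CPM, overlapped between the groups.

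Complex II, succinate dehydrogenase, had 0 of 8 members past the threshold in edgeR and 0 in DESeq2, with 1 at an unadjusted p under 0.05 in each. In edgeR 15.1% of all genes tested passed, and with 8 members a count of 0 is near that share. SDHA, the flavoprotein, was at 146.8, 145.2 and 150.8 CPM with the hairpin and 146.1, 149.9 and 143.1 CPM in the controls, with an interval of -3.82% to 5.67%. SDHB, the iron-sulfur subunit, was at 84.2, 92.8 and 81.0 CPM against 76.7, 84.2 and 81.2 CPM, and the membrane anchor SDHD at 51.7, 51.0 and 54.3 CPM against 52.5, 56.1 and 49.97 CPM. All 3 overlapped between the groups. The other anchor, SDHC, lies closest to the threshold and is named here after its values were seen: 97.3, 94.5 and 90.3 CPM against 107.3, 102.5 and 95.7 CPM (log2 change -0.12, edgeR adjusted p = 0.0540). It passed, as lower, with library totals in place of TMM (0.0466), a minimum mean of 1 CPM (0.0487) or pseudogene counts added (0.0479), without shITGB5 replicate 1 (0.0323) and without shcontrol replicate 3 (0.0144). The sum over complex II was 0.0804% lower with the hairpin, 445.5 CPM ± 6.12 against 445.9 CPM ± 15.0 (SD, n = 3).

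**Figure D4:**
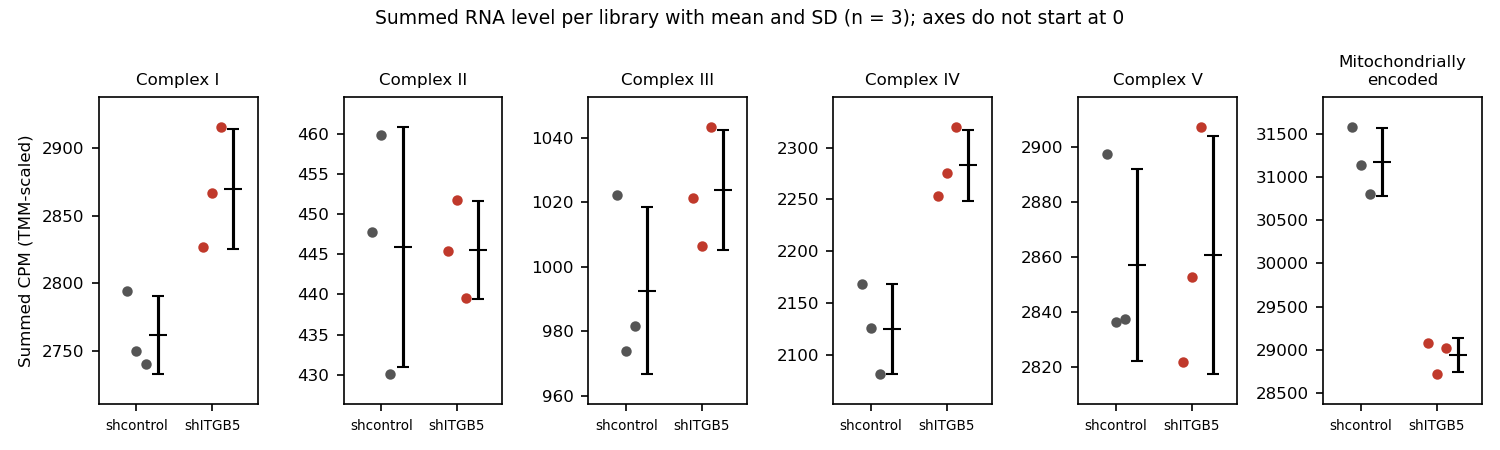
Summed CPM of the nuclear members of each complex and of the 13 mitochondrially encoded subunits in each library, with the mean and SD of each group (n = 3); the axes do not start at 0. Complexes I and IV are higher in every shITGB5 library, complexes II, III and V overlap, and the mitochondrially encoded sum is lower in every shITGB5 library.

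Members that rose tended to encode small proteins. Among members whose principal product has under 100 residues, 14 of 27 tested rose (51.9%) and 1 fell; from 100 to under 200 residues 9 of 48 rose (18.8%) and none fell; at 200 residues or more 2 of 28 rose, COX10 among them, and 2 fell, NDUFV2 and ATP5F1B. Across the 103 tested members the rank correlation between protein length and log2 change was -0.44 (Spearman; Pearson -0.22), given as a description, because members share the same 6 libraries and differ in level and transcript length as well. Within complexes it was -0.38 in complex I (44 members), -0.57 in complex III (9), -0.44 in complex IV (23) and -0.69 in complex V (19). The Pearson correlations were -0.21, -0.66, -0.0050 and -0.64 in the same order, so that of complex IV was near 0. Other nuclear protein-coding genes showed a weaker slope the same way: with members left out, 18.2% of 258 genes under 100 residues rose, 12.3% of 1319 genes of 100 to under 200 residues and 9.41% of 11685 longer genes. Over all 13365 such genes, members included, the rank correlation was -0.06. Over members, change also ran with mean FPKM (Spearman 0.34) and against the gene length of the table (-0.39). Whether length, level or library preparation has a part in the pattern was not tested.

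**Figure D5:**
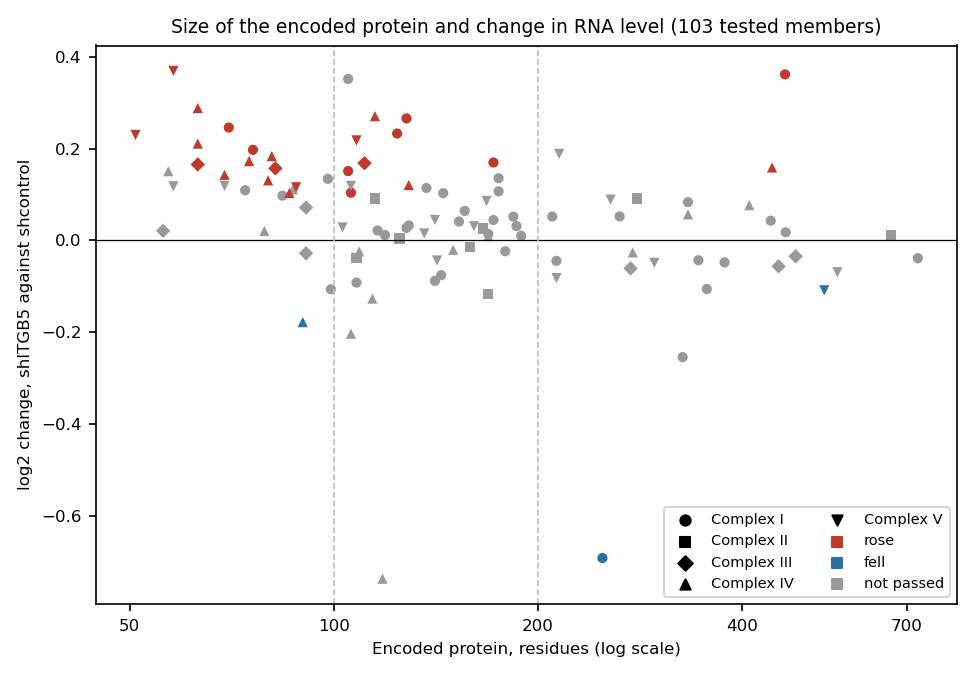
Log2 change of the 103 tested members against the length of the encoded protein in residues (log scale), with the complex as the marker shape and the call as the colour; dashed lines mark 100 and 200 residues. Red points gather under 200 residues, where 23 of the 25 risen members lie, and COX10 is among the 2 red points to the right.

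Assembly factors of all complexes were counted together: 2 of 21 rose (9.52%) and 1 fell (4.76%). Over all genes tested, 8.31% rose and 6.74% fell, so these shares were near those of all genes. Subunits and their copies gave 23 of 80 that rose (28.75%) and 2 that fell (2.5%). The difference between assembly factors and subunits was not tested. Outside the name rule, further factors were taken from lists of known helpers. Beside the counts in these lists stands the share of all genes tested that passed in either direction, 15.1%. Of 13 complex I assembly factors, 1 fell, NUBPL, an iron-sulfur carrier (203.2 CPM ± 3.82 to 178.8 CPM ± 0.274, SD, n = 3; log2 change -0.18, edgeR adjusted p = 8.26e-06). Of 6 complex III factors, UQCC3 rose (log2 change 0.33, adjusted p = 0.033; 0.0709 to 0.131 without shITGB5 replicate 1 or 2 or shcontrol replicate 1 or 3). Of 20 complex IV factors, SLIRP, which steadies mitochondrial mRNAs, rose (0.26, adjusted p = 0.0148; 0.0535 to 0.0828 without shITGB5 replicate 3 or shcontrol replicate 1 or 2), and HIGD1A fell (-0.11, adjusted p = 0.0384; 0.051 to 0.173 without any 1 library other than shcontrol replicate 3). Neither of the 2 tested ATP synthase assembly factors passed, ATPAF1 being the more abundant with 28.7 CPM ± 2.70 against 31.4 CPM ± 0.799 in shcontrol.

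The electron carrier between complexes III and IV also rose. CYCS, cytochrome c, was at 304.4, 304.3 and 312.0 CPM with the hairpin and 254.9, 257.5 and 245.3 CPM in the controls, with wide separation (log2 change 0.28, SE 0.029, edgeR adjusted p = 1.01e-11). It was the 1 gene of 3 in its list that passed. For this list and those that follow, the share of all genes tested that passed was 15.1%. Around the chain, the TCA cycle had 2 of 16 genes that rose, among them CS, citrate synthase (log2 change 0.10, adjusted p = 0.0394; 0.057 to 0.281 without any 1 library other than shcontrol replicate 1). Among 8 tested carriers and channels for ATP, ADP and phosphate, SLC25A5, the main ADP/ATP carrier here, rose (0.09, adjusted p = 0.00496; 0.0506 without shITGB5 replicate 3), and VDAC2 of the outer membrane fell (-0.13, adjusted p = 0.00411; 0.0515 without shcontrol replicate 3). Of 6 genes that feed ubiquinone by other routes, ETFB rose (0.24, adjusted p = 0.00187) and SQOR fell (-0.37, adjusted p = 0.0321). For SQOR the adjusted p was 0.0667 to 0.131 without shITGB5 replicate 1 or 2 or shcontrol replicate 1 or 2. None of 11 ubiquinone synthesis genes and none of 13 cristae and supercomplex genes passed; the most abundant were COQ8A (97.5 CPM ± 5.38 with the hairpin against 100.5 CPM ± 4.23) and PHB2 (257.7 CPM ± 5.28 against 262.9 CPM ± 9.20).

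Of 15 regulators of respiratory chain transcription, 1 passed, against 15.1% of all genes tested. ESRRA, a nuclear receptor that works with PPARGC1A on these genes, was at 68.4, 73.8 and 72.4 CPM with the hairpin and 59.7, 54.3 and 60.3 CPM in the controls, all knockdown libraries higher (log2 change 0.30, SE 0.050, edgeR adjusted p = 6.65e-06). Of 7 mitochondrial DNA replication genes, POLG2, the accessory subunit of the mitochondrial DNA polymerase, fell (log2 change -0.43, SE 0.095, adjusted p = 0.000496).

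Of the 13 mitochondrially encoded subunits of complexes I, III, IV and V, 9 fell and none rose. Over all genes tested, 6.74% fell and 8.31% rose. The median log2 change of the 13 was -0.13. MT-ND1, MT-ND3, MT-CO2 and MT-ATP8 did not pass, and MT-ND5, MT-ND6 and MT-ATP6 had the largest falls. MT-ND5, a proton-pumping subunit of complex I, was at 2253, 2189 and 2245 CPM with the hairpin and 2566, 2587 and 2554 CPM in the controls (log2 change -0.21, SE 0.019, edgeR adjusted p = 1.65e-13). MT-ND6 changed by -0.18 (adjusted p = 5.78e-09) and MT-ATP6, of the ATP synthase, by -0.18 (adjusted p = 4.35e-11). The summed level of the 13 genes was 7.17% lower with the hairpin, while that of all 112 nuclear members was 3.26% higher: 9369, 9453 and 9625 CPM against 9330, 9147 and 9071 CPM, the lowest knockdown library just above the highest control. Fewer mitochondrial genomes per cell and less RNA from each cannot be told apart in bulk RNA, and leaving the mitochondrial genes out of the scaling kept all 28 calls among members.

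Other features of the libraries moved with the groups too. Of 10 hepatocyte and hepatoma markers 7 rose, against 8.31% of all genes tested. The largest rises were those of TTR (log2 change 0.68), APOA2 (0.52) and APOA1 (0.36). The summed level of the 10 markers was 6721 to 6861 CPM with the hairpin against 5950 to 6091 CPM. Of 5 fibroblast markers, 4 were tested and 1 rose, LUM (log2 change 0.22); their sum was 320.7 to 329.6 CPM against 286.7 to 299.9 CPM, and DCN was under 0.1 CPM on average in both groups. Endothelial markers summed to 4.11 to 5.44 CPM against 3.55 to 5.62 CPM, with KDR at 0 in every library and PECAM1 alone tested, and blood and immune markers to 6.52 to 6.86 CPM against 6.41 to 7.50 CPM, with LYZ alone tested. The part of these differences in the results on members was not tested.

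Member symbols are shared by many processed copies, and some members overlap other genes. The table holds 168 pseudogenes named after 50 members; 92 of these were at 0 in every library, and together they held 4688 counts, 0.491% of the counts in members. For 3 tested members, NDUFV2, COX20 and SDHA, they held over 5% of the gene's own count. Exon bases shared with another gene were found for 56 tested members. Among the 47 tested members that share none, 12 rose and 1 fell, a share of 25.5% that rose and a median log2 change of 0.07.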

How the data were processed

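RNA libraries were made with a strand-marking kit from total RNA of Huh7 cells, per the labels' protocols. The authors deposited a table named for FPKM, but its values are whole-number counts per gene (100% whole, with column totals that differ), so they were analysed as raw counts. Which aligner and counting tool were used, and whether counting used strand, is not given in the sources used here. Reads of overlapping genes may therefore be mixed. The identifier, position and type of all 58735 genes equal those of GENCODE release 29 (GRCh38). Columns coded S were read as shITGB5 and NC as shcontrol, which the labels do not spell out.

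Genes were filtered by filterByExpr, scaled by TMM (factors 0.998 to 1.00) and tested with edgeR 4.0.16 (R 4.3.3), quasi-likelihood, two-sided, with Benjamini-Hochberg adjustment over all 16577 genes. Intervals are 95% intervals of the edgeR fold change. FPKM was computed from the counts and table lengths. The edgeR step was tested on simulated data. A count of 0 allows 3 counts, for counting error only.

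The members, lists, roles and motifs were chosen with earlier results of these data known. Named genes were ITGB5, members past the threshold, the 3 most abundant members per complex, isoform families, ATP5IF1, untested members and, per list, up to 3 called genes or the most abundant. Some genes that this rule took are counted but not reported by name here. No set test was made. Alternatives were other scalings and filters, DESeq2 1.42.0, limma 3.58.1 on log2(FPKM + 0.1, 1 or 5) with a mean FPKM of at least 0.5, a replicate block, pseudogene counts added to their parent gene, and leaving out each library.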

Additional observations from a re-analysis of the deposited data

How the results depend on the processing

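Of the 28 called members, 8 kept their call under every alternative run (among them COX17, COX7A2, COX7C, NDUFA4, ATP5MD, ATP5PF and ATP5F1B), and no called member was called with the other sign in any. RLE factors and scaling on nuclear genes kept all 28. With library totals or a minimum mean of 1 CPM, 5 members fell in place of 3 and 1 complex II gene passed in place of 0, as it did with pseudogene counts added; without a filter 1 fell. DESeq2 called 27 members and 2197 genes. Limma called 1284, 1304 and 1263 genes with pseudocounts 1, 0.1 and 5, against 2495 by edgeR; at each of these pseudocounts 9 members rose, and 2, 1, 5 and 3 members passed in complexes I, III, IV and V, against 9, 3, 11 and 5. The cause was not tested.

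Leaving out each library gave 16 to 26 members that rose and 1 to 3 that fell, with 4 to 10 called in complex I, 0 to 1 in II, 2 to 3 in III, 5 to 8 in IV and 4 to 8 in V. The same 6 fits called 1939 to 2183 genes in all, against 2495 with every library. Some genes that did not pass changed sign in these fits, with log2 changes from -0.0086 to 0.0223 for COX4I1, -0.0579 to 0.0206 for COX6A1, -0.24 to 0.29 for COX7A1, -0.0301 to 0.32 for NDUFA4L2, -0.0057 to 0.0273 for SDHA, -0.0541 to 0.0287 for SDHD and -0.13 to 0.20 for PECAM1. The replicate block called 2303 genes and 27 members, with COX10 lost. Deviations of same-numbered libraries correlated at -0.0237, -0.0788 and -0.0843 over 11504 genes, so the numbers were not taken to pair the libraries.

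With 3 libraries a group, the 95% interval of ATP5MC1, a member of intermediate level, spanned -4.99% to 7.48%. Changes of this gene within that span cannot be told from none. The interval gives no limit of detection for other members. Members under 4 CPM, such as NDUFV2, COX20 and NDUFA4L2, are limited by their counts.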
